A study of Mus musculus with 12 samples.

Results

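The genes described here are 40 germline and meiotic genes of the mouse, germ cell genes of the kind often silenced in somatic and stem cells by promoter methylation or by SETDB1. They are the members of a list of gene names and make up 40 of the 26061 genes in the table of gene values. By role they comprise 7 germ cell factors, 11 genes of the piRNA pathway, 7 genes of the meiotic chromosome axis and synaptonemal complex, 3 meiotic cohesin genes, 5 recombination genes, 4 genes of transcription and chromatin and 3 other testis genes. All 40 were found in the table, on 16 chromosomes, with at most 5 on any chromosome and 0 on X or Y.

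In the germline, cohesin complexes with meiotic subunits hold sister chromatids together, proteins of the chromosome axis and the synaptonemal complex pair the homologous chromosomes, and recombination enzymes make and repair the breaks that become crossovers. The piRNA pathway, built from PIWI proteins, Tudor-domain proteins and helicases, silences retrotransposons in the same cells. Outside the germline many of these genes are kept silent by DNA methylation of CpG-rich promoters, by H3K9 methylation and by an E2F6, MGA and MAX repressor complex, and embryonic stem cells (ESCs) are known to transcribe some of them at low levels.

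All libraries came from Tet2 knockout ESCs in which a PiggyBac vector had been stably introduced, carrying wild-type (WT) TET2 or a catalytic mutant of TET2 with the substitutions H1304Y and D1306A. Every library, in both lines, came from cells infected with a lentiviral pLKO.1 shRNA against Setdb1 and selected with puromycin. Cells grew without feeders on gelatin, in 2i medium (N2, B27, LIF, PD0325901 and CHIR99021; naïve) or in serum with LIF (primed). Each of the 4 groups had 3 libraries, prepared from polyA RNA without strand information. Because cells given a control shRNA are not analysed here, no value below measures a response to SETDB1 depletion, and each compares media or rescue lines among cells with the shRNA against Setdb1. The labels call the libraries of a group replicates 1 to 3 and do not say what was repeated, so p-values measure only the spread between these libraries.

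Values are variance-stabilised log2 values, on which 0 reads take the value 3.81 in every library. With WT TET2, naïve libraries held 10090165 to 12357101 gene reads (median 12013721) and primed libraries 8066662 to 21335933 (median 9790961). With mutant TET2, naïve libraries held 11187137 to 20189214 (median 14322507) and primed libraries 8979339 to 11140836 (median 11003142). The targeted gene Setdb1 had log2 values of 7.73, 7.51 and 8.21 in naïve and 8.19, 8.22 and 8.40 in primed ESCs with WT TET2, and 7.56, 7.46 and 8.04 in naïve and 7.52, 8.26 and 8.55 in primed ESCs with mutant TET2. Its values overlapped between lines in both media, on 114 to 585 reads per library, and WT and mutant lines differed by 0.13 ± 0.25 (SE, n = 3 per group throughout) in naïve ESCs (adjusted p = 0.857) and by 0.16 ± 0.25 in primed ESCs (0.788). Tet2 had log2 values of 12.73, 13.09 and 14.001 in naïve and 14.81, 14.58 and 15.09 in primed ESCs with WT TET2, and 10.60, 10.81 and 11.95 in naïve and 12.50, 13.20 and 13.27 in primed ESCs with mutant TET2. Every library with WT TET2 lay above every library with mutant TET2 in the same medium, with naïve libraries lower than primed ones, and reads of the construct and of the endogenous gene were not separated. Tet2 was 2.16 higher with WT TET2 in naïve ESCs (adjusted p = 0.0154) and 1.84 higher in primed ESCs (0.0297), so the lines differed in the amount of Tet2 RNA. For the protein, the authors report similar levels in the rescue lines by western blot.

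The ESC label was checked on 10 markers, and all 10 were read in every library. Nanog, the most abundant of them in 7 of the 12 libraries (Dppa5a or Pou5f1 in the others), had log2 values of 14.24, 14.36 and 14.10 in naïve and 13.48, 13.85 and 13.64 in primed ESCs with WT TET2, and 14.65, 14.05 and 13.83 in naïve and 13.82, 13.56 and 13.96 in primed ESCs with mutant TET2. The sum over the 10 ESC markers was 5913 to 7506 RPM in naïve and 5253 to 6394 in primed libraries (RPM, reads per 1000000 gene reads). The naïve marker Tcfcp2l1 rose by 2.33 ± 0.20 with WT TET2 (adjusted p = 4.14e-07) and by 2.77 ± 0.20 with mutant TET2 (9.51e-08) in naïve ESCs, while Utf1 and Zfp42 were called lower in naïve ESCs of both lines. Of 8 primed or formative markers, the sum was 238, 490.3 and 628 RPM in naïve libraries 1 to 3 with WT TET2 and 190.0, 275 and 487 with mutant TET2. In primed libraries it was 736, 717 and 699.9 with WT TET2 and 516, 726 and 445 with mutant TET2. The naïve library numbered 3 was the highest of its group in both lines. Lefty2, a Nodal inhibitor that was itself called higher in naïve ESCs (4.08 in the WT and 3.29 in the mutant line), was the most abundant of these markers in every naïve library, and Dnmt3b, a de novo DNA methyltransferase, in every primed one. In naïve libraries 1 to 3, Lefty2 had 835, 3437 and 4142 reads with WT TET2 and 1212, 1787 and 5330 with mutant TET2, against 800, 1372 and 1890 and 672, 606 and 2076 for Dnmt3b. Both libraries were kept, and counts without them are given beside the main ones.

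Cells of the testis or ovary would carry other markers. Of 8 spermatid markers, 5 (Prm2, Tnp1, Acrv1, Akap4 and Spem1) had 0 reads in every library, 0 passed the filter for testing, and the list summed to at most 0.248 RPM. Oocyte markers summed to 7.63 to 15.9 RPM in naïve and 15.1 to 30.8 in primed libraries, 91.2% of it from Zp3, with Bmp15 at 0 everywhere. Gonadal somatic markers summed to 3.32 to 11.4 RPM, with Star the most abundant in every library.

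Levels of the members were first compared with each other per length, as reads per kilobase of exon and 1000000 gene reads. In naïve ESCs with WT TET2, Dazl, an RNA-binding translational regulator needed for germ cell development, had the highest level at 348 ± 94.4 (SD, n = 3). Stk31, a Tudor-domain protein of germ cells, followed at 104 ± 14.3 and Tex19.1, needed to restrain retrotransposons in the male germline, at 72.7 ± 23.2. The ranges of Stk31 and Tex19.1 met, whereas the lowest Dazl library stood above both. Rank 3 of Tex19.1 rested on library 3, since Syce2, of the synaptonemal complex (68.6 ± 16.0), stood above it in libraries 1 and 2. In primed ESCs with WT TET2 the order was Tex19.1 (132 ± 16.4), Stk31 (58.9 ± 7.38) and Dazl (44.8 ± 7.43). With mutant TET2 the group means of these genes ranked 1 to 3 in the same order in each medium. In naïve ESCs with mutant TET2, Tex19.1 (72.1 ± 14.0) and Syce2 (71.4 ± 6.6) lay close, with Syce2 the higher in library 2. Rank 3 of Dazl in primed ESCs with mutant TET2 (49.95 ± 36.0) rested on library 3, since Syce2 (45.5 ± 4.91) stood above it in libraries 1 and 2. At the other end, Tdrd6, a Tudor-domain protein of the spermatid chromatoid body, and Spo11, the enzyme that makes meiotic double-strand breaks, had 0 reads in all 12 libraries. In all, 21 members had at least 100 reads in every library, and 12 had under 10 reads in at least 1 library. Summed over the 40 members, the level came to 3650, 2692 and 2909 in naïve and 1535, 1498 and 1455 RPM in primed ESCs with WT TET2. With mutant TET2 it was 2794, 2437 and 1891 in naïve and 1323, 1344 and 1850 in primed ESCs. Every naïve library exceeded every primed library of its line, but mutant naïve library 3, the lowest naïve library, lay close to mutant primed library 3. Dazl alone gave 21.4% to 37.7% of the member reads in naïve libraries and 5.38% to 14.8% in primed ones.

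Comparing naïve with primed ESCs asked how the medium, and with it the known loss of DNA methylation in 2i, goes along with germline gene expression when SETDB1 is depleted. A gene was called at an adjusted p below 0.05 in a limma fit over 14185 genes, and 32 of the 40 members passed the filter on low values. With WT TET2, 18 members were called higher in naïve ESCs, where 18.6% of all tested genes were called higher, and 3 were called lower, where 17.3% were. Their median difference was 0.64, against 0.01 over all tested genes. With mutant TET2, 12 members were called higher, where 18.3% of all tested genes were, and 5 lower, where 16.9% were, with a median of 0.47 against -0.01. Because members that passed the filter only through the medium where they are high had to differ, these counts are a description. Counting only differences above 1 on the log2 scale left 11 of the 21 calls with WT TET2, where 12.3% of all tested genes were left, and 10 of the 17 with mutant TET2, where 11.5% were. Without both naïve libraries numbered 3, an alternative chosen after seeing the data, 17 members were called higher and 3 lower with WT TET2, where 17.5% and 16.6% of all tested genes were. With mutant TET2 it was 16 higher and 3 lower, where 18.9% and 17.7% were. In bulk RNA, fewer cells that express a gene and less RNA per cell cannot be told apart.

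The 12 members called higher with mutant TET2 were all among the 18 called higher with WT TET2, which is 100% of the shorter list and 66.7% of the longer one. Over all tested genes called higher, 74.8% of the mutant list and 73.6% of the WT list were shared. The 2 comparisons are not independent, because same-numbered naïve libraries of the lines deviated together (r = 0.59, 0.30 and 0.39 over all tested genes). These were Dazl, Syce2, Hormad1, Hormad2, Stag3, Smc1b, Rec8, Sohlh2, Tex14, Brdt, Fkbp6 and Dpep3. Syce1, Tex19.1 and Tdrd5 were called lower in both lines, 100% of the WT TET2 list and 60% of the mutant one, where 71.4% and 73.2% of the lists over all tested genes were shared. A call in 1 line and not in the other does not show that the lines differ: the interaction called 0 members by limma (5 at an unadjusted p below 0.05, 15.6% of the tested members against 3.45% of all tested genes, and 0 by voom), and 0% of all genes.

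**Figure D1:**
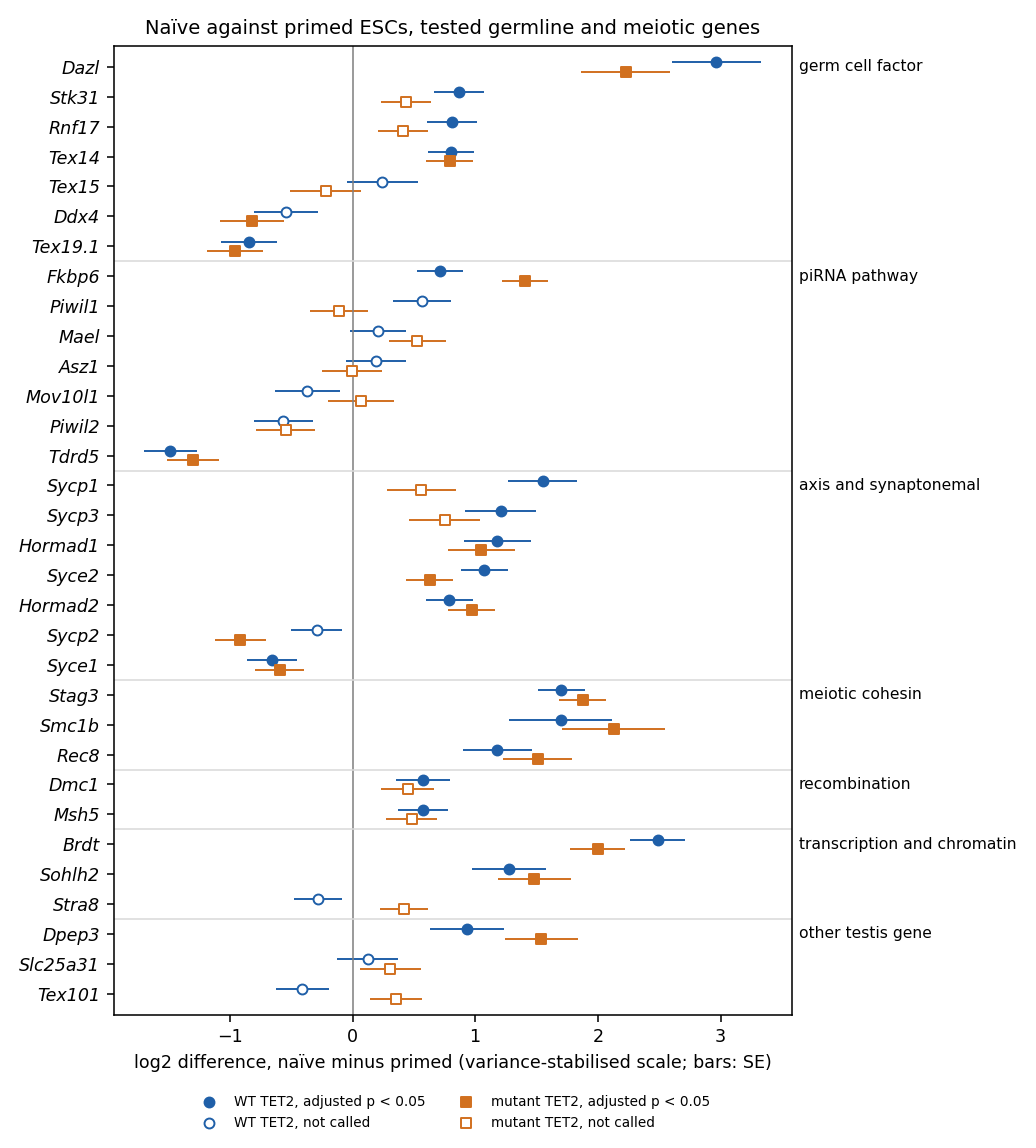
Log2 difference between naïve and primed ESCs (x axis, naïve minus primed, variance-stabilised scale) for the 32 tested members, by role, with WT TET2 (circles) and mutant TET2 (squares). Bars are SE, n = 3 libraries per group, and filled symbols are called at an adjusted p below 0.05. Dazl, Brdt, Stag3 and Smc1b lie farthest to the right in both lines, and Tdrd5 farthest to the left.

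The 3 meiotic cohesin genes among the members, Stag3, Smc1b and Rec8, encode STAG, SMC1 and kleisin subunits that replace their mitotic counterparts in germ cells. All 3 were called higher in naïve ESCs of both lines, with medians of 1.70 with WT TET2 and 1.88 with mutant TET2. Of all tested genes, 18.6% were called higher with WT TET2 and 18.3% with mutant TET2. Stag3, at chr5:138721468-138753621 of mm9, had log2 values of 10.28, 10.10 and 9.98 in naïve and 8.14, 8.55 and 8.57 in primed ESCs with WT TET2, and 10.11, 9.93 and 9.85 in naïve and 7.81, 7.97 and 8.49 in primed ESCs with mutant TET2. Naïve and primed libraries were well apart in both lines, and the naïve libraries of the lines lay side by side. Stag3 rose by 1.70 ± 0.19 with WT TET2 (adjusted p = 4.87e-06) and by 1.88 ± 0.19 with mutant TET2 (1.88e-06), a ratio of mean normalised reads of 3.43 and 3.88. Smc1b, at chr15:84895121-84962387, had log2 values of 11.29, 9.80 and 9.50 in naïve and 8.62, 8.50 and 8.38 in primed ESCs with WT TET2, and 10.25, 9.84 and 8.43 in naïve and 7.25, 7.14 and 7.75 in primed ESCs with mutant TET2. It spread more within the naïve groups than Stag3 did, with library 1 the highest and library 3 the lowest in both lines, and still without overlap with the primed libraries. Smc1b rose by 1.70 ± 0.42 with WT TET2 (adjusted p = 0.00499) and by 2.13 ± 0.42 with mutant TET2 (0.00105), a ratio of 4.02 and 5.61, the former 2.32 without WT naïve library 1. Rec8 had log2 values of 9.42, 9.01 and 7.99 in naïve and 7.74, 7.53 and 7.61 in primed ESCs with WT TET2, and 9.17, 9.06 and 8.57 in naïve and 7.75, 7.27 and 7.25 in primed ESCs with mutant TET2. The WT naïve library 3 came close to the primed range, and no naïve library entered it. Rec8 rose by 1.18 ± 0.28 with WT TET2 (adjusted p = 0.00406) and by 1.51 ± 0.28 with mutant TET2 (0.000711).

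Of the 7 genes of the chromosome axis and synaptonemal complex, 5 were called higher and 1 lower in naïve ESCs with WT TET2, and 3 higher and 2 lower with mutant TET2. Of all tested genes, 18.6% were called higher and 17.3% lower with WT TET2, and 18.3% and 16.9% with mutant TET2. The HORMA-domain proteins Hormad1 and Hormad2 coat unsynapsed chromosome axes. Hormad1, at chr3:95363599-95391593, had log2 values of 10.41, 10.05 and 10.42 in naïve and 8.90, 9.44 and 8.997 in primed ESCs with WT TET2, and 10.03, 9.90 and 9.27 in naïve and 8.44, 8.19 and 9.42 in primed ESCs with mutant TET2. With WT TET2 the media did not overlap, whereas with mutant TET2 primed library 3 lay above naïve library 3. Hormad1 rose by 1.18 ± 0.27 with WT TET2 (adjusted p = 0.00326) and by 1.05 ± 0.27 with mutant TET2 (0.00724), and the call with mutant TET2 was lost without primed library 2 (adjusted p = 0.0505). Hormad2 had log2 values of 8.01, 8.59 and 8.42 in naïve and 7.55, 7.77 and 7.34 in primed ESCs with WT TET2, and 8.16, 8.63 and 8.42 in naïve and 7.50, 7.33 and 7.45 in primed ESCs with mutant TET2. All naïve libraries were above all primed libraries of both lines, and Hormad2 rose by 0.79 ± 0.19 with WT TET2 (adjusted p = 0.00459) and by 0.97 ± 0.19 with mutant TET2 (0.00107).

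Syce2, a protein of the central element of the synaptonemal complex, had log2 values of 10.46, 11.03 and 10.52 in naïve and 9.53, 9.94 and 9.32 in primed ESCs with WT TET2, and 10.61, 10.88 and 10.71 in naïve and 10.31, 9.98 and 10.02 in primed ESCs with mutant TET2. Its naïve libraries stood above the primed ones in each line. Syce2 rose by 1.07 ± 0.19 with WT TET2 (adjusted p = 0.000394) and by 0.63 ± 0.19 with mutant TET2 (0.0166), where the latter call was lost without mutant primed library 2 (adjusted p = 0.0697) and without mutant naïve library 2 (0.0701). Syce1, a partner in the same central element, went the other way, with log2 values of 7.54, 7.27 and 7.81 in naïve and 8.31, 8.14 and 8.14 in primed ESCs with WT TET2, and 8.05, 7.63 and 7.48 in naïve and 8.60, 8.28 and 8.07 in primed ESCs with mutant TET2. Naïve libraries were the lower ones, and in the mutant line the highest naïve library came near the lowest primed one. Syce1 differed by -0.66 ± 0.20 with WT TET2 (adjusted p = 0.0183) and by -0.59 ± 0.20 with mutant TET2 (0.0306). With WT TET2 its call was lost without primed library 1 (0.0756) or naïve library 2 (0.0872). With mutant TET2 the adjusted p was 0.122 without primed library 1, 0.0689 without primed library 2, 0.0955 without naïve library 2 and 0.107 without naïve library 3, and 0.0518 in a fit of the 6 libraries alone. Without both naïve libraries numbered 3 it was 0.0866.

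Sycp1 forms the transverse filaments of the synaptonemal complex, and Sycp2 and Sycp3 its lateral elements. Sycp1, at chr3:102622422-102740023, had log2 values of 10.27, 9.91 and 9.64 in naïve and 8.34, 8.42 and 8.42 in primed ESCs with WT TET2, and 10.29, 10.26 and 9.03 in naïve and 9.41, 8.88 and 9.60 in primed ESCs with mutant TET2. With WT TET2 the naïve libraries were all above the primed ones, and with mutant TET2 naïve library 3 fell among the primed libraries. Sycp1 rose by 1.55 ± 0.28 with WT TET2 (adjusted p = 0.000485) and differed by 0.56 ± 0.28 with mutant TET2 (0.130). Its interaction was the largest of the tested members and was not called (0.99 ± 0.40, adjusted p = 0.976), and it was 0.57 without mutant naïve library 3. Between the lines (WT minus mutant) Sycp1 differed by 0.08 in naïve and by -0.91 in primed ESCs. What made its difference between media smaller with mutant TET2 was not tested.

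Sycp3 had log2 values of 9.42, 8.90 and 8.85 in naïve and 7.64, 8.17 and 7.74 in primed ESCs with WT TET2, and 9.39, 9.70 and 8.28 in naïve and 8.61, 8.08 and 8.41 in primed ESCs with mutant TET2. The media separated with WT TET2, and with mutant TET2 naïve library 3 was again among the primed values. Sycp3 rose by 1.21 ± 0.29 with WT TET2 (adjusted p = 0.00418) and differed by 0.75 ± 0.29 with mutant TET2 (0.0536), with an interaction of 0.46 ± 0.41 (0.976). Mutant naïve library 3 was the lowest naïve library of its line for Sycp3. The ratio of mean normalised reads, WT over mutant TET2, was 0.893 in naïve and 0.674 in primed ESCs. What made the difference between media smaller with mutant TET2 was not tested. Chpt1, on the opposite strand, overlaps 52.2% of the exon length of Sycp3, reads of the pair cannot be told apart in these libraries, and Chpt1 itself was 0.91 higher in naïve ESCs with WT TET2 (adjusted p = 0.0111) and differed by 0.66 with mutant TET2 (0.0534). Sycp2 was rare, with 2 to 41 reads per library and log2 values of 4.89, 4.98 and 5.50 in naïve and 5.23, 5.50 and 5.51 in primed ESCs with WT TET2, and 4.51, 4.37 and 4.84 in naïve and 5.31, 5.46 and 5.69 in primed ESCs with mutant TET2. With mutant TET2 every naïve library was below every primed one, and with WT TET2 the ranges met. Sycp2 differed by -0.91 ± 0.21 with mutant TET2 (adjusted p = 0.00309) and by -0.29 ± 0.21 with WT TET2 (0.292), and the interaction was 0.62 ± 0.29 (0.976).

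Among the 4 genes of transcription and chromatin, Brdt, the testis member of the BET bromodomain family, and Sohlh2, a basic helix-loop-helix factor of early germ cell differentiation, were called in both lines. Brdt, at chr5:107760178-107816077, had log2 values of 7.97, 7.84 and 7.68 in naïve and 5.52, 5.46 and 5.06 in primed ESCs with WT TET2, and 8.17, 7.69 and 7.22 in naïve and 5.77, 5.57 and 5.73 in primed ESCs with mutant TET2. The gap between media was wide in both lines, from 15 to 27 reads in primed libraries to 165 to 308 in naïve ones. Brdt rose by 2.49 ± 0.22 with WT TET2 (adjusted p = 5.94e-07) and by 2.00 ± 0.22 with mutant TET2 (6.17e-06), a ratio of mean normalised reads of 11.3 and 6.80. Sohlh2 had log2 values of 10.88, 10.46 and 9.76 in naïve and 9.37, 8.72 and 9.18 in primed ESCs with WT TET2, and 10.13, 9.80 and 9.34 in naïve and 8.43, 7.66 and 8.74 in primed ESCs with mutant TET2. Naïve libraries were higher in each line, and the primed libraries of the mutant line were the lowest of all but for 1 that reached the WT range. Sohlh2 rose by 1.28 ± 0.30 with WT TET2 (adjusted p = 0.00348) and by 1.48 ± 0.30 with mutant TET2 (0.00126). Stra8, which retinoic acid induces at the entry into meiosis, was not called in either line (-0.28 ± 0.19 with WT TET2, 0.42 ± 0.19 with mutant TET2), on 36 to 164 reads per library.

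Of 7 germ cell factors, 4 were called higher and 1 lower in naïve ESCs with WT TET2, and 2 in each direction with mutant TET2. Of all tested genes, 18.6% were called higher and 17.3% lower with WT TET2, and 18.3% and 16.9% with mutant TET2. Dazl, at chr17:50418719-50432924, had the largest difference of the tested members in both lines, with log2 values of 13.99, 13.39 and 13.41 in naïve and 10.65, 10.42 and 10.83 in primed ESCs with WT TET2, and 13.41, 12.91 and 12.20 in naïve and 10.37, 9.79 and 11.67 in primed ESCs with mutant TET2. All naïve libraries exceeded all primed libraries, and among the primed mutant libraries number 3 stood well above the others. Dazl rose by 2.96 ± 0.36 with WT TET2 (adjusted p = 1.38e-05) and by 2.23 ± 0.36 with mutant TET2 (0.000227), a ratio of mean normalised reads of 8.03 and 4.30, the latter 7.17 without mutant primed library 3. Tex14, which keeps the cytoplasmic bridges between germ cells open, had log2 values of 10.10, 9.80 and 9.55 in naïve and 9.08, 8.92 and 9.03 in primed ESCs with WT TET2, and 9.90, 9.83 and 9.49 in naïve and 8.63, 8.95 and 9.27 in primed ESCs with mutant TET2. The media did not overlap in either line, and Tex14 rose by 0.81 ± 0.19 with WT TET2 (adjusted p = 0.00351) and by 0.79 ± 0.19 with mutant TET2 (0.00415).

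Stk31 and Rnf17, a RING-finger and Tudor-domain protein needed for spermatid differentiation, were called with WT TET2. Stk31 had log2 values of 11.998, 11.78 and 12.21 in naïve and 11.01, 11.34 and 11.04 in primed ESCs with WT TET2, and 11.70, 12.02 and 11.47 in naïve and 11.19, 10.94 and 11.74 in primed ESCs with mutant TET2. Naïve libraries were above primed ones with WT TET2, and with mutant TET2 primed library 3 reached into the naïve range. Stk31 rose by 0.87 ± 0.20 with WT TET2 (adjusted p = 0.00364) and differed by 0.44 ± 0.20 with mutant TET2 (0.106), with an interaction of 0.43 ± 0.29 (0.976). Rnf17 had log2 values of 11.58, 11.27 and 11.86 in naïve and 10.75, 10.90 and 10.63 in primed ESCs with WT TET2, and 11.33, 11.21 and 10.97 in naïve and 10.43, 10.60 and 11.25 in primed ESCs with mutant TET2. It showed the same layout, with primed library 3 of the mutant line among the naïve values. Rnf17 rose by 0.81 ± 0.20 (adjusted p = 0.00553) with WT TET2 and differed by 0.41 ± 0.20 (0.131) with mutant TET2, and its interaction was 0.40 ± 0.29 (0.976). Mutant primed library 3 was the highest primed library of its line for Stk31 and Rnf17. Its part in the smaller differences with mutant TET2 was not tested.

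Tex19.1, at chr11:121007457-121009633, went down in naïve ESCs, with log2 values of 10.21, 10.60 and 11.17 in naïve and 11.73, 11.43 and 11.35 in primed ESCs with WT TET2, and 10.78, 10.36 and 10.85 in naïve and 11.71, 11.90 and 11.24 in primed ESCs with mutant TET2. Each naïve library lay below each primed library of its line. Tex19.1 differed by -0.84 ± 0.23 with WT TET2 (adjusted p = 0.00906) and by -0.96 ± 0.23 with mutant TET2 (0.00416), and with WT TET2 the call was lost without primed library 1 (adjusted p = 0.0506) or naïve library 1 (0.0503). Its paralog Tex19.2 was called higher in naïve ESCs of both lines (1.18 and 1.16), and because reads with several equally good positions were placed at random, exchange of reads between the pair was not measured. Ddx4, the vasa RNA helicase of germ granules, had log2 values of 9.05, 7.98 and 8.34 in naïve and 9.11, 8.84 and 9.03 in primed ESCs with WT TET2, and 9.36, 8.79 and 8.37 in naïve and 9.42, 9.67 and 9.89 in primed ESCs with mutant TET2. With mutant TET2 naïve libraries were the lower ones, and with WT TET2 naïve library 1 lay within the primed range. Ddx4 differed by -0.82 ± 0.26 with mutant TET2 (adjusted p = 0.0218) and by -0.54 ± 0.26 with WT TET2 (0.114), with an interaction of 0.28 ± 0.37 (0.976). The call was lost without mutant primed library 2 (0.0608) or 3 (0.0664), or mutant naïve library 2 (0.0656) or 3 (0.102), and without both naïve libraries numbered 3 (0.105). Tex15, needed for meiotic break repair and piRNA-directed silencing, was not called in either line (0.24 ± 0.29 and -0.22 ± 0.29).

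**Figure D2:**
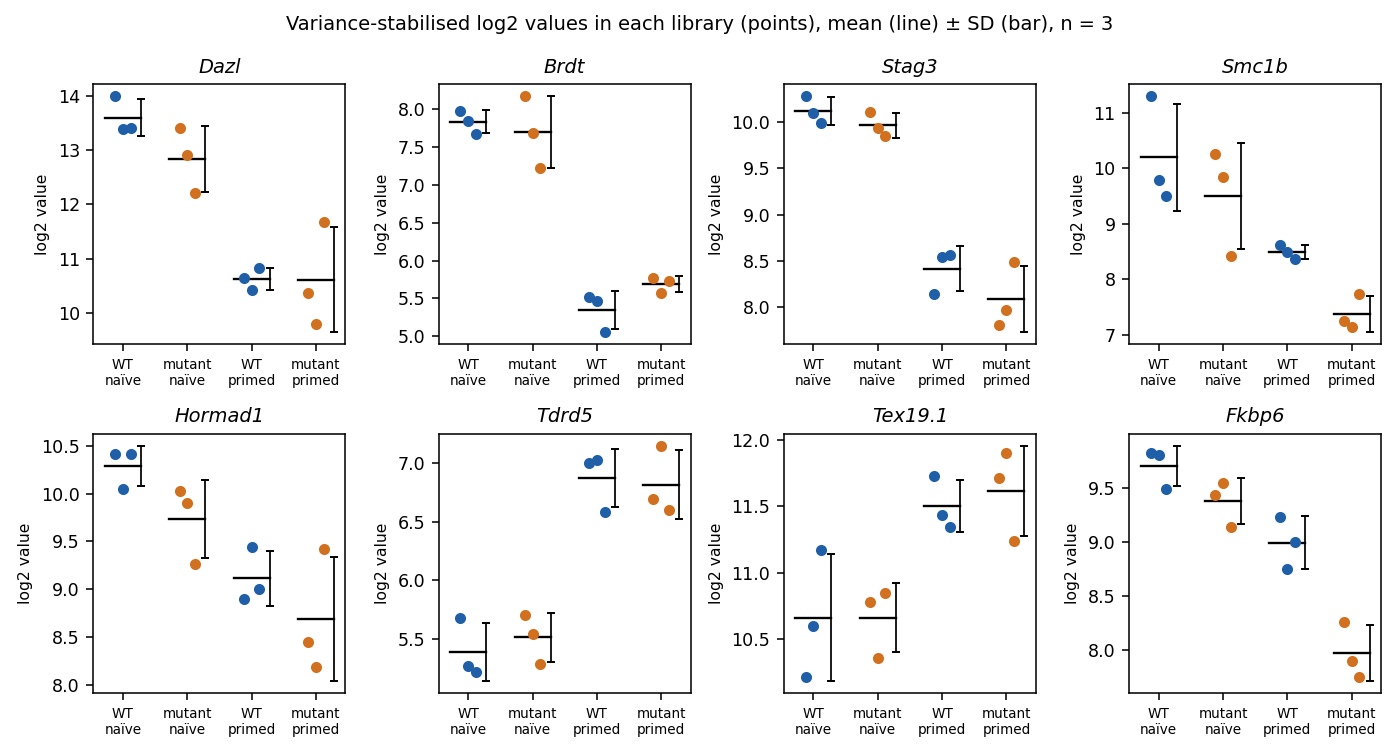
Variance-stabilised log2 values of 8 members in each of the 12 libraries (y axis), by group (x axis: WT or mutant TET2, naïve or primed), with points in the order of libraries 1 to 3. Lines are group means and bars SD, n = 3. Dazl, Brdt, Stag3 and Smc1b are higher in naïve than in primed ESCs, Tdrd5 and Tex19.1 are lower, and Fkbp6 is lowest in primed ESCs with mutant TET2.

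Of the 11 piRNA pathway genes, 7 were tested, with 1 called higher and 1 lower in each line. Of all tested genes, 18.6% were called higher and 17.3% lower with WT TET2, and 18.3% and 16.9% with mutant TET2. Tdrd5, a Tudor-domain protein that retrotransposon silencing in spermatogenesis requires, at chr1:158185426-158233795, had log2 values of 5.67, 5.27 and 5.22 in naïve and 7.0001, 7.02 and 6.58 in primed ESCs with WT TET2, and 5.70, 5.54 and 5.29 in naïve and 6.69, 7.15 and 6.60 in primed ESCs with mutant TET2. Naïve libraries held 14 to 33 reads and primed ones 56 to 132, without overlap in either line. Tdrd5 differed by -1.48 ± 0.21 with WT TET2 (adjusted p = 6.11e-05) and by -1.30 ± 0.21 with mutant TET2 (0.000227), a ratio of mean normalised reads of 0.207 and 0.254. Fkbp6, a co-chaperone of PIWI loading that also sits on meiotic chromosomes, at chr5:135767574-135825895, had log2 values of 9.82, 9.80 and 9.49 in naïve and 9.23, 8.75 and 8.99 in primed ESCs with WT TET2, and 9.44, 9.55 and 9.14 in naïve and 8.26, 7.90 and 7.75 in primed ESCs with mutant TET2. Naïve libraries were higher than primed ones in each line, and the primed mutant libraries were the lowest of all. Fkbp6 rose by 0.71 ± 0.19 with WT TET2 (adjusted p = 0.00703) and by 1.41 ± 0.19 with mutant TET2 (2.82e-05).

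The other tested piRNA genes were not called. Piwil2, a PIWI protein of embryonic and adult male germ cells, differed by -0.57 ± 0.24 with WT TET2 (adjusted p = 0.0760) and by -0.54 ± 0.24 with mutant TET2 (0.0879). Piwil1, the PIWI protein of pachytene spermatocytes, had 2 to 33 reads per library and differed by 0.57 ± 0.24 and -0.11 ± 0.24. Mael, a piRNA pathway protein of germ granules, differed by 0.21 ± 0.23 and 0.53 ± 0.23 on 269 to 1167 reads. The helicase gene Mov10l1 differed by -0.37 ± 0.27 and 0.07 ± 0.27. Asz1, an ankyrin-repeat protein of the same pathway, had 3 to 33 reads per library. Its ratio of mean normalised reads was 1.31 with WT TET2 and 1.14 with mutant TET2.

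Of 5 recombination genes, 2 were tested. Dmc1, the meiotic strand-exchange recombinase, had log2 values of 8.37, 8.32 and 7.77 in naïve and 7.64, 7.84 and 7.26 in primed ESCs with WT TET2, and 8.02, 8.41 and 7.72 in naïve and 7.59, 7.62 and 7.59 in primed ESCs with mutant TET2. With WT TET2 the lowest naïve library lay within the primed range, while with mutant TET2 the media did not overlap. Dmc1 rose by 0.57 ± 0.22 with WT TET2 (adjusted p = 0.0481) and differed by 0.45 ± 0.22 with mutant TET2 (0.117), with an interaction of 0.12 ± 0.31 (0.985). That call was lost without WT primed library 1 (0.0957) or 3 (0.213) and without WT naïve library 1 (0.145) or 2 (0.148). It was also lost with no filter (adjusted p = 0.0615), median centring (0.0575), quantile normalization (0.0510) and the 6 libraries alone (0.0522).

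Msh5, which with Msh4 stabilises crossover intermediates, had 0 to 27 reads per library and log2 values of 4.81, 4.92 and 4.82 in naïve and 3.81, 4.53 and 4.49 in primed ESCs with WT TET2, and 5.54, 5.30 and 5.24 in naïve and 4.97, 4.98 and 4.68 in primed ESCs with mutant TET2. The media did not overlap in either line, with WT primed library 1 at 0 reads. Msh5 rose by 0.57 ± 0.21 with WT TET2 (adjusted p = 0.0392) and differed by 0.48 ± 0.21 with mutant TET2 (0.0796), and its interaction was 0.09 ± 0.29 (0.992). The call was lost without WT primed library 1 (difference 0.34, adjusted p = 0.233), without WT naïve library 1 (0.0629), 2 (0.101) or 3 (0.0637), without both naïve libraries numbered 3 (0.0694) and in the 6 libraries alone (0.0656).

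Of the 3 other testis genes, Dpep3, a membrane dipeptidase of the testis, was called in both lines, with log2 values of 7.72, 6.51 and 6.55 in naïve and 5.66, 5.90 and 6.42 in primed ESCs with WT TET2, and 8.12, 7.78 and 7.71 in naïve and 6.67, 5.94 and 6.39 in primed ESCs with mutant TET2. Naïve libraries were above primed ones in each line, by a small margin with WT TET2. Dpep3 rose by 0.93 ± 0.30 with WT TET2 (adjusted p = 0.0224) and by 1.54 ± 0.30 with mutant TET2 (0.000939). With WT TET2 the call was lost without primed library 1 (adjusted p = 0.106) or 2 (0.0613) or naïve library 1 (0.119), and the difference was 0.54 without the latter. Slc25a31, the ADP/ATP carrier of male germ cells, and Tex101, a surface glycoprotein of testicular germ cells, were not called in either line.

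Among the 8 members that did not pass the filter, Tdrd6 and Spo11 had 0 reads everywhere, and Sohlh1, Piwil4, Mei1, Msh4, Tdrd1 and Tdrd9 had at most 15 reads in any library. Tdrd1, a Tudor-domain scaffold of the piRNA pathway, had 1, 1 and 0 reads in naïve and 3, 1 and 13 in primed ESCs with WT TET2, and 4, 0 and 1 in naïve and 11, 15 and 14 in primed ESCs with mutant TET2. The primed mutant libraries held the most reads relative to their depth. In a fit with no filter Tdrd1 was lower in naïve ESCs with mutant TET2 by a log2 difference of -1.12 ± 0.20 (adjusted p = 0.000709), and differed by -0.47 ± 0.20 with WT TET2 (0.0907). Tdrd9, a helicase of the same pathway, was 0.69 ± 0.24 higher in naïve ESCs with WT TET2 in that fit (0.0437) and differed by 0.21 ± 0.24 with mutant TET2 (0.568), on 0 to 15 reads.

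Comparing WT with mutant TET2 within a medium asked whether the catalytic activity of TET2 goes along with germline gene expression after SETDB1 depletion. These comparisons share their libraries with the ones between media. Each construct came in its own stable rescue line. Catalytic activity, the line and the amount of Tet2 RNA therefore cannot be told apart. In naïve ESCs limma called 0 of the 32 tested members (8 at an unadjusted p below 0.05, 25% against 13.3% of all tested genes, and 0 by voom), where 0.0987% of all genes were called. Same-numbered naïve libraries of the lines deviated together, and with a block on the pair limma called 0 of the 32 (16 at an unadjusted p below 0.05, where 19.7% of all tested genes were), where 23 genes of all were called higher and 13 lower (0.254%), against 13 and 1 without it. In that fit Mael (-0.72 ± 0.16, adjusted p = 0.0566) and Dpep3 (-0.94 ± 0.22, adjusted p = 0.0674) had the smallest adjusted p of the members. In all 3 pairs, 10 tested members were higher and 7 lower with WT TET2, where 43.8% of all tested genes kept 1 direction. The higher ones were Dazl, Sycp2, Hormad1, Stag3, Sohlh2, Tex15, Piwil1, Piwil2, Rnf17 and Fkbp6, and the lower ones Ddx4, Mael, Stra8, Mov10l1, Tdrd5, Msh5 and Dpep3. Taken as unpaired, the groups did not overlap for 5 tested members, 3 higher and 2 lower with WT TET2, where 16.8% of all tested genes did not overlap. The median difference was 0.09, against 0.00318 over all tested genes. Without the block Dpep3 had the largest difference (-0.94 ± 0.30, adjusted p = 0.271), lower with WT TET2 in each pair though the groups overlapped. Tex15 (0.87 ± 0.29, adjusted p = 0.281), Hormad1 (0.56 ± 0.27, 0.386) and Sycp2 (0.55 ± 0.21, 0.308) were higher with WT TET2 in every library. In pairs 1 to 3, Tex15 differed by 0.73, 0.58 and 1.30, and Hormad1 by 0.38, 0.14 and 1.15. The lowest WT library for Hormad1 (10.05) lay close to the highest mutant one (10.03). Stra8 (-0.57 ± 0.19, 0.281) and Msh5 (-0.51 ± 0.21, 0.3203) were lower in every library. Dazl differed by 0.76 ± 0.36 (0.382), and with the block by 0.76 ± 0.22, adjusted p = 0.107. The lowest WT library overlapped the mutant range, and the WT library was the higher one of each pair.

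In primed ESCs limma and voom each called 1 of the 32 tested members (7 at an unadjusted p below 0.05, 21.9% against 16.2% of all tested genes), Fkbp6, where 0.254% of all genes were called. Among all genes the calls were 29 higher and 7 lower with WT TET2, and on other scales 27 and 13 after median centring, 29 and 14 after quantile normalization and 27 and 12 on log2 of normalised reads plus 1. Groups did not overlap for 9 tested members, 3 higher and 6 lower with WT TET2, where 22.4% of all tested genes did not overlap. The median over tested members was 0.0019, against 0.0087 over all tested genes, and its sign changed with the scale (-0.02 after median centring, 0.01 after quantile normalization).

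In primed ESCs the Fkbp6 log2 values, given above, were all higher with WT TET2 than with mutant TET2, from 334 to 909 reads per library against 177 to 202. Fkbp6 was 1.03 ± 0.19 higher with WT TET2 (adjusted p = 0.0285), a ratio of mean normalised reads of 2.15. Leaving out WT primed library 1 ended the call (adjusted p = 0.219), as did leaving out WT primed library 3 (0.135) or mutant primed library 2 (0.0846) and fitting the 6 primed libraries alone (0.0851). In naïve ESCs Fkbp6 differed by 0.33 ± 0.19 (0.440), and the interaction was -0.69 ± 0.26 (0.976), so a difference between media in the effect was not called. Smc1b had the largest difference in primed ESCs (1.12 ± 0.42, adjusted p = 0.233), with every WT library above every mutant one. Sycp1 (-0.91 ± 0.28, 0.193), Syce2 (-0.51 ± 0.19, 0.232) and Ddx4 (-0.66 ± 0.26, 0.247) were lower with WT TET2 in every library. A replicate block in limma also called Smc1b (adjusted p = 0.0169), Sohlh2 (0.0205) and Sycp1 (0.0273), though primed libraries share only a number.

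**Figure D3:**
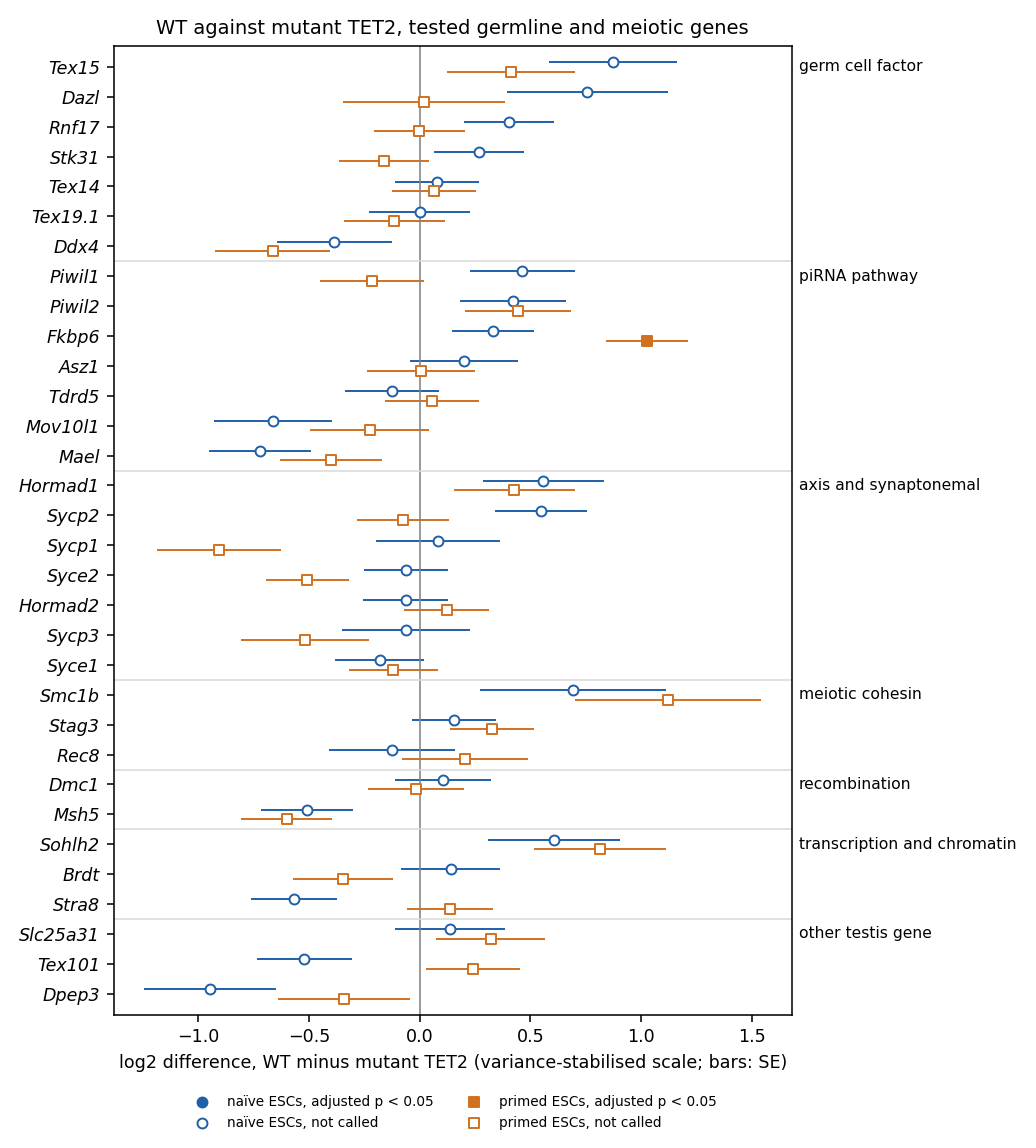
Log2 difference between WT and mutant TET2 (x axis, WT minus mutant, variance-stabilised scale) for the 32 tested members, by role, in naïve (circles) and primed ESCs (squares). Bars are SE, n = 3 libraries per group, and filled symbols are called at an adjusted p below 0.05. Fkbp6 in primed ESCs is the 1 filled symbol.

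Markers of other cell states differed between the same groups, and their part in the results was not tested. Of 5 two-cell-like markers, 4 were tested, and Zscan4d (-1.99, adjusted p = 0.0336) and Gm4340 (-1.32, 0.0463) were called lower with WT TET2 in primed ESCs, by limma and not by voom. Their sum was 7.07, 5.62 and 10.4 RPM with WT TET2 and 33.4, 18.3 and 88.9 with mutant TET2 in primed ESCs, and 9.32, 8.25 and 10.2 with WT TET2 against 18.3, 16.1 and 29.4 with mutant TET2 in naïve ESCs. Zscan4d had the most reads of them in 4 libraries, among these mutant primed library 3, and Zscan4c or Zscan4f in the others. In naïve ESCs all 4 tested were also lower with WT TET2 in every library and not called, with adjusted p from 0.0674 (Zscan4c) to 0.336 (Zscan4d) with the block on the pair. Mutant primed library 3, the highest in this sum, was also the primed library with the highest sum over the 40 members. Between media, 0 of the 4 were called with WT TET2 by limma (0 at an unadjusted p below 0.05, 0 by voom), and with mutant TET2 Gm4340 was called lower in naïve ESCs (interaction 0.51, adjusted p = 0.976).

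Of 9 primordial germ cell markers, 8 were tested, with Nanos2 at 0 reads everywhere. In naïve against primed ESCs 3 were called higher and 2 lower with WT TET2, and 2 higher and 0 lower with mutant TET2. The shares over all tested genes were 18.6% higher and 17.3% lower with WT TET2, and 18.3% and 16.9% with mutant TET2. The sum was 1157, 1138 and 857 RPM in naïve and 755, 862 and 703 in primed ESCs with WT TET2, and 1190, 1160 and 869.5 in naïve and 908, 755 and 648 in primed ESCs with mutant TET2. Dppa3, which ESCs also express, was the most abundant in 11 libraries, and Ifitm3 in WT primed library 3. Prdm14, a regulator of germ cell fate and of naïve pluripotency, rose by 1.64 ± 0.19 with WT TET2 (adjusted p = 8.2e-06) and by 1.63 ± 0.19 with mutant TET2 (9.12e-06) in naïve ESCs, and Kit was called higher in both lines (1.02 and 1.18). The specification factors Prdm1 (-1.06, adjusted p = 0.00125) and Tcfap2c (-0.55, 0.0156) were called lower with WT TET2, both chosen after their values were seen. With mutant TET2 they differed by -0.43 (0.132; interaction -0.63, 0.976) and -0.28 (0.189; interaction -0.26, 0.976).

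Of the primed or formative markers, 6 of 8 were tested, with 2 called higher and 4 lower in naïve ESCs with WT TET2, and 1 higher and 4 lower with mutant TET2. Of the 10 ESC markers, 2 were called in each direction with WT TET2, and 1 higher and 2 lower with mutant TET2. Beside these and the next lists, 18.6% of all tested genes were called higher and 17.3% lower with WT TET2. With mutant TET2 it was 18.3% and 16.9%. Trophoblast markers summed to 0.999 to 5.01 RPM in naïve and 9.24 to 19.8 in primed libraries, with Gata3, the most abundant in every primed library, at 0 reads in every naïve one. Of 3 tested, 2 were called lower with WT TET2 and 1 with mutant TET2. Fibroblast markers summed to 5.58 to 7.75 in naïve and 2.48 to 4.90 in primed libraries, with Lum the most abundant in every primed library, Thy1 in 5 of the 6 naïve ones, and Col1a2, Col3a1, Dcn and Postn having 0 reads everywhere. Of 2 tested, Thy1 was called higher in naïve ESCs of both lines and Lum lower with mutant TET2 (interaction 1.26, adjusted p = 0.976). In each line Dab2 was the 1 of 3 tested primitive endoderm markers called, lower in naïve ESCs, and that list summed to 3.33 to 7.35 RPM. Zp3, 1 of 2 tested oocyte markers, and Star, the 1 tested gonadal marker, were called lower in naïve ESCs of both lines. Between rescue lines, 0 of the 39 tested genes of all marker lists were called in naïve ESCs by limma (9 at an unadjusted p below 0.05, 0 by voom, and 0 called and 11 unadjusted with the block on the pair), and 2, named above, in primed ESCs.

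Other genes of the same pathways were taken from lists that hold none of the 40 members. Their counts stand beside shares over all tested genes of 18.6% called higher and 17.3% lower with WT TET2. With mutant TET2 these shares were 18.3% and 16.9%, and the counts are a description. Of 29 further meiotic genes, 24 were tested, and 8 were called higher and 2 lower in naïve ESCs with WT TET2 (median 0.27), and 6 higher and 3 lower with mutant TET2 (median 0.0915). D6Mm5e, listed as M1ap, a gene of male meiosis, rose by 1.93 ± 0.24 with WT TET2 (adjusted p = 1.41e-05) and by 2.57 ± 0.24 with mutant TET2 (8.3e-07). Spata22, a partner of meiotic single-strand DNA binding, was called lower in naïve ESCs of both lines (-1.64 and -1.87), as was Zcwpw1, a reader of PRDM9 marks (-1.61 and -1.25). Of 15 further piRNA pathway genes, 13 were tested, and 6 were called higher and 2 lower with WT TET2 (median 0.13), and 7 higher and 3 lower with mutant TET2 (median 0.45). Dnmt3l, the cofactor of de novo methylation in germ cells, had the largest difference, -5.18 ± 0.24 and -5.17 ± 0.24, lower in naïve ESCs. In primed ESCs Gtsf1 (1.02 ± 0.19, adjusted p = 0.0310), a PIWI cofactor, and Gpat2 (0.83 ± 0.16, 0.0463), a mitochondrial piRNA factor, were called higher with WT TET2 by limma, and voom called Gtsf1 (0.0464) but not Gpat2 (0.0643).

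Among 23 other germline genes, 21 were tested, and 8 were called higher and 5 lower with WT TET2 (median -0.21), and 7 higher and 5 lower with mutant TET2 (median -0.0371). The axonemal dynein gene Dnahc8 rose by 3.90 ± 0.22 with WT TET2 (adjusted p = 5.78e-09) and by 3.39 ± 0.22 with mutant TET2 (3.06e-08), and the RNA-binding protein gene Lin28a differed by -3.07 and -3.38. All 26 genes of germline repressors and DNA methylation were tested, and 1 was called higher and 8 lower in naïve ESCs with WT TET2 (median -0.27), and 12 lower with mutant TET2 (median -0.42). Dnmt3b differed by -2.21 ± 0.28 with WT TET2 (adjusted p = 1.55e-05) and by -2.45 ± 0.28 with mutant TET2 (6.16e-06). Trim28, the corepressor that recruits SETDB1, was called lower in both lines (-0.94 and -1.08), as were Max, the partner of MGA (-0.88 and -1.11), and L3mbtl2 (-0.93 and -0.95). Other genes of this list went otherwise. Rnf2 was called higher with WT TET2 (0.68, adjusted p = 0.0187) and differed by 0.22 with mutant TET2 (0.433). Mga (0.14 and 0.11), Pcgf6 (-0.16 and -0.42), Cbx3 (0.40 and 0.02) and Ring1 (-0.16 and -0.03) were not called in either line. E2f6, chosen after its values were seen, was called lower with mutant TET2 (-0.51 ± 0.15, adjusted p = 0.0132) and differed by -0.13 ± 0.15 with WT TET2 (0.505), with an interaction of 0.37 ± 0.21 (0.976). Between rescue lines, Tet2 was the 1 gene of the 4 lists called in naïve ESCs (with the block also Rhox9 and Usp26), and Tet2, Gtsf1 and Gpat2 were the 3 called in primed ESCs, of 83 tested.

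Promoters were compared because many of the members are known to be repressed at CpG-rich promoters. RefSeq sequences of GRCm38.p6, from 250 bases before to 50 after the start, were matched for 35 of the 40 members, without Tex15, Tdrd6, Piwil2, Spo11 and Rnf17. Their median number of CG dinucleotides in 300 bases was 19, against 7 over the promoters of 27025 genes. CACGTG, the E-box bound by MGA with MAX, was found in 15 of 35 (42.9%), against 7.24% of all promoters. TCCCGC, the core of the E2F6 motif, was found on either strand in 15 (42.9%), against 20% of all, and both in 7 (20%), against 2.05%. Both motifs contain a CG, so promoters with more CG dinucleotides can hold more matches. Shares in promoters of like CG number were not computed, so these shares do not separate the motifs from CG content. CACGTG reads the same on both strands, and the matches share a base with each other in 0 member promoters. By call, 7 of the 17 matched members called higher in naïve ESCs in at least 1 line held CACGTG and 10 held TCCCGC. Among the 5 called lower these were 1 and 3, among the 7 tested and not called 4 and 2, and among the 6 untested 3 and 0. Tdrd5, lower in naïve ESCs, had the most CG dinucleotides of the 35 (48), and Dazl, with 28, held neither motif. A match describes the letters and is not a bound site.

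The 150 bases before the start are shown for the called members with a pair of E-boxes (Hormad1, Sycp3 and Fkbp6), for Dazl and Brdt, with the largest differences with WT TET2, and for Tdrd5, with the largest among those called lower, chosen after their values were seen so that promoters with and without the motifs can be read side by side. Sohlh1, untested, held the most E-boxes (3) and is not shown. Capitals mark CACGTG, and TCCCGC or its reverse complement, and each runs 5′ to 3′ on the strand of the gene. In GRCm38.p6 these lie at chr3:95559527-95559676 (plus strand) for Hormad1, chr10:88459437-88459586 (plus strand) for Sycp3, chr5:135350045-135350194 (minus strand) for Fkbp6, chr5:107331044-107331193 (plus strand) for Brdt, chr17:50293621-50293770 (minus strand) for Dazl and chr1:156303349-156303498 (minus strand) for Tdrd5. Hormad1, Sycp3 and Fkbp6 each hold a pair of E-boxes in this stretch and Brdt a single one, whereas Dazl and Tdrd5 show none, the single TCCCGC of Tdrd5 lying elsewhere in its 300 bases.
Hormad1: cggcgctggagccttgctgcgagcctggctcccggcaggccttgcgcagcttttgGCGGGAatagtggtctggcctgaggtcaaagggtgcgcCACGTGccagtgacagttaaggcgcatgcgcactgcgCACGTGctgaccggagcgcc
Sycp3: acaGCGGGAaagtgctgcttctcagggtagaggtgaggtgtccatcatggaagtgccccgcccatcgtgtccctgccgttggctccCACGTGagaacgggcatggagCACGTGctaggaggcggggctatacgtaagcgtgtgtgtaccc
Fkbp6: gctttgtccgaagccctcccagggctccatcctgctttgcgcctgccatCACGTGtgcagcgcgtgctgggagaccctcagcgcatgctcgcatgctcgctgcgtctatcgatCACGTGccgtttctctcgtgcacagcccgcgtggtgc
Brdt: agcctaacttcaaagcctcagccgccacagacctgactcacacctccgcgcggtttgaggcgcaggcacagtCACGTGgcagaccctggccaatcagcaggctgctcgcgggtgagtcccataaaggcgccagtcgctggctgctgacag
Dazl: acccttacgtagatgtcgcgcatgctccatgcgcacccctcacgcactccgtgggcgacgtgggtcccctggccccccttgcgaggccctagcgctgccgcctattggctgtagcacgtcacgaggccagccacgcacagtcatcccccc
Tdrd5: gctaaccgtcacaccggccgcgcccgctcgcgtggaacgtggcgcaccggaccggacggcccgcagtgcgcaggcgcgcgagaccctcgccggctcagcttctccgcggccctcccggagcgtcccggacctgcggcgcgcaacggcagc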

How the data were processed

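Per the labels, the authors trimmed polyA reads of the 12 libraries with Trim Galore 0.3.3, aligned them to mm9 with TopHat2 2.0.9, placing a read with several equally good positions at random, and deposited variance-stabilised log2 values from DESeq2. The gene annotation behind the read counts is not stated, and exon lengths and positions here are from GENCODE for mm9. Inverting the transformation returned whole reads (within 0.01) for 100% of values. All 12 libraries, grouped by label, entered a single limma 3.58.1 fit (R 4.3.3) of 4 groups with an intensity trend, two-sided, adjusted by Benjamini-Hochberg over the 14185 genes with a mean at least 1 above the lowest value, and run beside it was voom on the recovered reads. The procedure was tested on simulated data. Same-numbered naïve libraries of the rescue lines correlated after subtraction of group means (r = 0.59, 0.30 and 0.39 over 14185 genes), so the number pairs them, and blocking on it called 0 members there. Named in full are all called members and the largest difference of each comparison, and from each further list at most 4 called genes. More are named of the germline repressors and the primordial germ cell markers. Lists were markers (ESC, primed or formative, primordial germ cell, spermatid, oocyte, gonadal soma, two-cell-like, fibroblast, primitive endoderm, trophoblast) and further genes (meiotic, piRNA, other germline, germline repressors). Members and lists were chosen with earlier results of these data known. Alternatives were other filters, scales, thresholds and fits, a replicate block and each library left out. Figures and promoter counts used Python 3.11.15 with matplotlib 3.10.9, pandas 2.3.3 and numpy 2.4.6.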

Additional observations from a re-analysis of the deposited data

How the results depend on the processing

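For the members called in naïve against primed ESCs, counts moved by over 1.5 times under 1 alternative in each line, a log2 difference above 1, which left 11 of 21 with WT TET2 and 10 of 17 with mutant TET2. Leaving out 1 library at a time gave 16 to 20 and 13 to 19. In primed ESCs the count for WT against mutant TET2, 1 in the fit reported, was 4 (3 higher, 1 lower) with a replicate block, 0 with the 6 primed libraries alone, 0 at an adjusted p below 0.01, and 0 to 1 when 1 library at a time was left out. Primed libraries share only a number, and the block there moved the calls over all genes from 29 higher and 7 lower to 115 and 94 and added Smc1b (adjusted p = 0.0169), Sohlh2 (0.0205) and Sycp1 (0.0273), and with mutant TET2 between media Sycp3 (0.0447). The cause of these changes was not tested, beyond fewer libraries or a stricter limit. In naïve ESCs and for the interaction, 0 members were called by limma under each alternative. The 42 results for single members are the called ones and the largest difference of each comparison. Over them and 673 alternatives, 633 kept direction and side of the threshold, 39 lost the call, 1 (Smc1b in primed ESCs with the block) gained it and 0 turned. The other 3 gains with the block are not among the 42, and gains of uncalled members under the other alternatives enter only through the counts. Centring and normalization moved the median of all genes by under 0.1. Depth limits 12 members with under 10 reads in at least 1 library.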
